A study of Mus musculus with 14 samples.

Results

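To describe which responses to differentiation conditions still occurred in ES cells that could make no Foxa2, the 3 libraries of d3ko were compared with the 2 libraries of d0ko. These are 5 of the 14 RNA-seq libraries of the series, chosen by their sample titles, and all 13899 genes that passed a filter on low counts were tested. In both groups each Foxa2 allele carries a nuclear H2B-Venus reporter in place of the coding region (genotype Foxa2-Venus-KO/Foxa2-Venus-KO), so that Venus marks cells in which the Foxa2 promoter is active. The d0ko cells were undifferentiated mouse ES cells, grown overnight without LIF on red-fluorescent, mitomycin-treated MEFs (embryonic fibroblasts that serve as a feeder layer) and sorted as Cherry-negative. The d3ko cells were sorted as Venus-positive on day 3, after culture on feeder cells that secrete Wnt3a and in medium with Activin A at 12 ng/ml. Replicate 1 of each group and replicate 3 of d3ko came from clone C9 and replicate 2 of each from clone C17. The matching control libraries, d0con (2) and d3con (3), carry the reporter on 1 allele only (Foxa2-Venus-KO/+) and came from clones C59 and C63. Wnt3a, Activin A, the change of medium and feeder cells, the 3 days of culture and the sort (Venus-positive or Cherry-negative) all differ between d0ko and d3ko and cannot be told apart here.

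Wnt ligands act through Frizzled and Lrp receptors and stabilise beta-catenin, which joins Tcf and Lef factors at its target genes. Activin A acts through the receptors used by Nodal, which phosphorylate Smad2 and Smad3. In the embryo both signals meet in the primitive streak, where epiblast cells leave pluripotency and become mesoderm or definitive endoderm, and Foxa2 is a pioneer factor of the endoderm. Naive mouse ES cells draw on both glycolysis and mitochondrial respiration and depend on the breakdown of threonine, and cholesterol and fatty acids are made for the membranes of growing and migrating cells.

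The 5 ko libraries held 15882612 to 27278237 expected counts, and Foxa2 itself stayed near 0, with 0.07 and 0.11 TPM in d0ko and 0.11, 0.15 and 0.19 TPM in d3ko, against 34.8 to 58.6 TPM in d3con (chr2:148042877-148046969 in GRCm38.p6). TPM, here always a level corrected for transcript length and library size, is given for d0ko replicates 1 and 2 and d3ko replicates 1, 2 and 3, in that order. Fold changes are on the log2 scale from TMM-scaled counts, with adjusted p-values of the quasi-likelihood test in edgeR, and a gene is said to have risen or fallen at an adjusted p under 0.05 and a log2 fold change over 1 in size. The log2 ratio of mean TPM ran a median of 0.17 above these fitted values over 8574 genes. By the deposited effective lengths, replicate 1 of d3ko and of d3con had 75-base reads and the other libraries 50-base reads. The paper's methods state 50-base reads for all of them. In both of these libraries 8 genes, Gapdh among them, were at least 3-fold above all the others, and none of the 8 is counted as risen in d3ko. A further 6 genes were at least 3-fold below all the others there. The library from clone C17, d3ko replicate 2, stood apart from the 2 day 3 libraries of clone C9, with lower naive pluripotency and germline genes and higher streak and hypoxia genes. Over the genes of chromosome 8 its log2 level differed by a median of -0.44 from the mean of the other d3ko libraries, and over those of chromosome X by 0.22. Between the d0ko libraries (clone C17 minus clone C9) these medians were -0.08 and 0.03. Genes named here that lie on chromosome 8 include Nkd1, Esrp2, Msmo1, Hand2 and Tubb3. In bulk samples such as these, fewer cells of a type and less RNA per cell cannot be told apart.

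In d3ko 1613 genes, 11.6% of those tested, were higher than in d0ko and 795 genes (5.72%) were lower. The median log2 fold change over all genes was 0.07. In the control cells 2863 genes (20.6%) rose and 2027 (14.6%) fell from d0con to d3con. Of the 2408 genes that changed in the knockout, 2070 changed in the same direction in the controls, which is 86.0% of the knockout's changes and 42.3% of the controls' 4890. The 5 genes that changed in opposite directions, named here after their values were seen, were Chga, Dnaaf1, Fermt1, Ntrk2 and Spink3, all of which fell in the knockout and rose in the controls. With the replicate block the knockout's fall of Spink3 did not pass (adjusted p = 0.085). The call of Chga (adjusted p = 0.11), Dnaaf1 (adjusted p = 0.1), Ntrk2 (adjusted p = 0.13) and Spink3 (adjusted p = 0.11) was lost without d0ko replicate 1. Without d0ko replicate 2 the call was lost for Chga (adjusted p = 0.078), Dnaaf1 (adjusted p = 0.14), Fermt1 (adjusted p = 0.057), Ntrk2 (adjusted p = 0.095) and Spink3 (adjusted p = 0.17). Chga (adjusted p = 0.057), Dnaaf1 (adjusted p = 0.059), Ntrk2 (adjusted p = 0.073) and Spink3 (adjusted p = 0.081) did not pass without d3ko replicate 1. Dnaaf1 (adjusted p = 0.056) and Spink3 (adjusted p = 0.12) no longer passed without d3ko replicate 3. The call of Ntrk2 (adjusted p = 0.056) and Spink3 (adjusted p = 0.12) was lost without d3ko replicate 2. Over all genes, without d0ko replicate 1 the counts were 344 higher and 323 lower, and without d0ko replicate 2 they were 554 and 420. In these fits 1 day 0 ko library was left, and it is assumed to vary like the other groups.

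A test of the difference between both changes (the interaction of genotype and day in the edgeR fit) called 0 genes (0.0%) at the same threshold, with a lowest adjusted p of 0.051, while 1840 genes had an unadjusted p under 0.05. DESeq2 called 565 genes on the same libraries and limma on log2(TPM + 1) called 12. Without d3ko replicate 2 edgeR called 1118 genes, 670 of them with a change more positive in the knockout and 448 with one more negative. With the ko libraries of clone C9 only, an alternative chosen after seeing the data, there were 329. A difference between knockout and control is therefore given below as side by side values, for part of the lists with the number of members called in some of these fits.

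**Figure D1:**
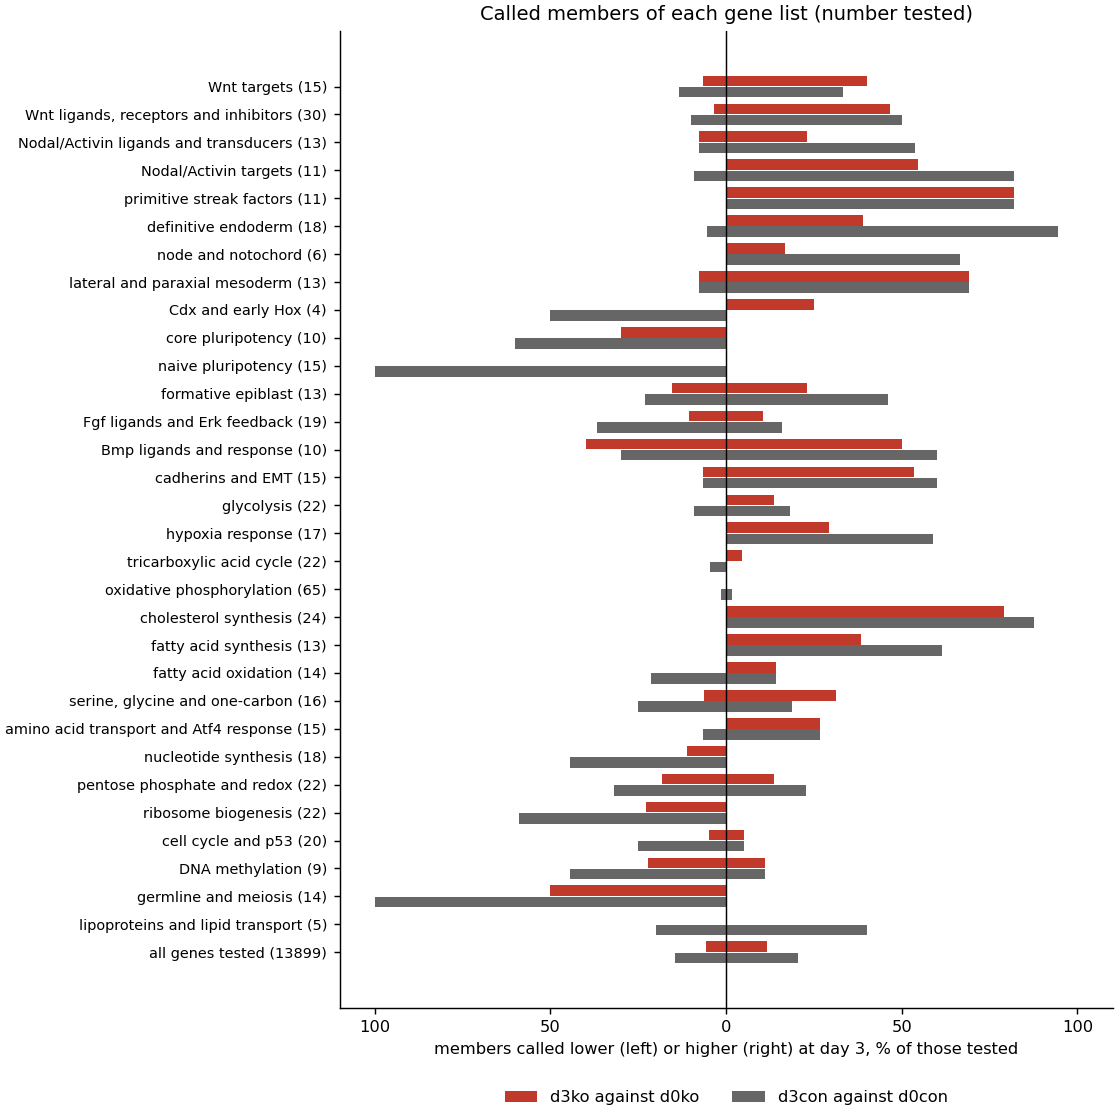
Share of the tested members of each gene list that rose (bars to the right) or fell (bars to the left) at day 3, in % of the members tested, for d3ko against d0ko (red) and d3con against d0con (grey), with the number tested in parentheses. Streak, mesoderm and cholesterol lists have similar bars in both genotypes, while all 15 naive pluripotency genes fell in the controls and none was called in the knockout.

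Part of the Wnt target genes rose in cells without Foxa2. Of 15 tested targets, 6 rose (11.6% of all genes tested did) and 1 fell (5.72% of all genes), and their median log2 fold change was 1.79, beside 5 risen, 2 fallen and a median of 0.76 in the controls. Sp5, a zinc finger repressor that Wnt signalling induces directly, had 3.47 and 2.34 TPM in d0ko and 69.5, 79.2 and 23.5 TPM in d3ko. All d3ko libraries lay above both d0ko libraries, and Sp5 rose (log2 fold change 4.12 ± 0.61 (SE), adjusted p = 0.0024), as it did in the controls (3.79 ± 0.60). Nkd1, a feedback inhibitor of the pathway, rose by 2.80 ± 0.51 (adjusted p = 0.005), and Rnf43, which removes Frizzled receptors from the membrane, by 3.24 ± 0.69 (adjusted p = 0.0095). The receptor gene Tnfrsf19, a further target, had 24.2, 19.2 and 14.9 TPM in d3ko against 5.25 and 3.37 TPM in d0ko and rose (log2 fold change 2.04, adjusted p = 0.028). Dkk1, a secreted inhibitor that binds Lrp receptors, rose to 14.4, 9.06 and 2.84 TPM from 0.54 and 0.53 TPM (log2 fold change 3.85, adjusted p = 0.028), with 44.5 to 385 TPM in d3con. Axin2, the classical feedback target, was above d0ko in every d3ko library without passing the test (log2 fold change 0.98, adjusted p = 0.057), as was Lef1 (log2 fold change 1.32, adjusted p = 0.077). Notum, an enzyme that inactivates Wnt ligands, fell from 19.3 and 13.6 TPM to 4.41, 0.56 and 6.15 TPM (log2 fold change -2.30, adjusted p = 0.046). Nkd1 (adjusted p = 0.065), Rnf43 (adjusted p = 0.091), Tnfrsf19 (adjusted p = 0.11), Dkk1 (adjusted p = 0.15) and Notum (adjusted p = 0.21) did not keep the call without d0ko replicate 1. Rnf43 (adjusted p = 0.068), Tnfrsf19 (adjusted p = 0.17), Dkk1 (adjusted p = 0.14) and Notum (adjusted p = 0.11) did not pass without d0ko replicate 2. Tnfrsf19 (adjusted p = 0.066), Dkk1 (adjusted p = 0.064) and Notum (adjusted p = 0.082) no longer passed without d3ko replicate 1. In leave-one-out fits, targets risen and fallen numbered 1 and 0 without d0ko replicate 1, 2 and 0 without d0ko replicate 2 and 3 and 0 without d3ko replicate 1.

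The stretches of 250 bases before the start sites of Sp5 (chr2:70474673-70474922, plus strand) and of the streak factor T (chr17:8434173-8434422, plus strand; both from RefSeq, GRCm38.p6) are shown because Sp5 is a direct Wnt target and T is the factor by which the streak is usually recognised. Both are printed 5′ to 3′ on the strand of the gene, with the Tcf/Lef core CTTTGA or its other-strand form TCAAAG in capitals.
Sp5: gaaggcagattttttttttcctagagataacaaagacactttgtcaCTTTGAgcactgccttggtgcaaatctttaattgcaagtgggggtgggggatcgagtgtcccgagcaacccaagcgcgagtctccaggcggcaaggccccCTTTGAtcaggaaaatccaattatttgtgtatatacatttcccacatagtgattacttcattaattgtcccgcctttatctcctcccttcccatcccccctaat
T: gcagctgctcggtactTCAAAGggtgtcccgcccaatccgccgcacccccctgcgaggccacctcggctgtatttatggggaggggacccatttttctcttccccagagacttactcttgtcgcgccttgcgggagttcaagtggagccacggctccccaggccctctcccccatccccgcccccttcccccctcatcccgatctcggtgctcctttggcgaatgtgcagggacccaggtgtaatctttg
This core was found on either strand in 15.8% of 27025 genes' stretches of the same length, in 5 of the 10 Wnt targets with a promoter sequence (50%) and in 3 of 10 streak factors (30%). A match is a description of letters and not a binding site.

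Genes of the Wnt apparatus itself rose in part. Among 30 ligands, receptors, secreted inhibitors and export factors 14 rose and 1 fell, with a median of 1.70 on the log2 scale, close to the controls' 1.72 (15 risen and 3 fallen). In the interaction test the change was more negative in the knockout for 5 members in DESeq2 with all libraries. It was so for 4 in edgeR without d3ko replicate 2, and it was more positive for 0 in both fits. Wnt3, the ligand of the early streak, had 1.33 and 1.24 TPM in d0ko and 22.9, 47.0 and 7.53 TPM in d3ko (log2 fold change 4.14 ± 0.72 (SE), adjusted p = 0.0044). Rspo3, a secreted protein that enhances Wnt signals, had 48.1, 34.2 and 12.0 TPM in d3ko against 0.12 and 0.2 TPM in d0ko, where the groups lay far apart (log2 fold change 7.45 ± 1.07 (SE), adjusted p = 0.0022). Wls, which carries Wnt proteins to the cell surface, rose from 3.28 and 3.96 TPM to 86.2, 59.8 and 22.7 TPM (log2 fold change 3.79, adjusted p = 0.0024). The receptor genes Fzd7 (log2 fold change 1.61 ± 0.35, adjusted p = 0.011), Fzd2 (log2 fold change 2.75 ± 0.58, adjusted p = 0.0093) and Lrp5 (log2 fold change 1.42 ± 0.22, adjusted p = 0.0029) also rose. Wnt7b, a ligand of epithelia, went the other way, with 8.97 and 21.5 TPM in d0ko and 0.23, 0.21 and 0.22 TPM in d3ko (log2 fold change -6.26 ± 0.86 (SE), adjusted p = 0.0018). The gene of the ligand that the feeder cells secrete, Wnt3a, had 3.44 and 2.35 TPM in d0ko and 18.4, 7.11 and 26.9 TPM in d3ko and did not pass the test (adjusted p = 0.061). The fibroblast collagen gene Col1a1 had 16.9 and 57.6 TPM in d0ko and 168, 67.2 and 259.6 TPM in d3ko. In both, d3ko replicate 2 had the lowest and replicate 3 the highest level of the d3ko libraries, and the part of feeder RNA in the Wnt3a level was not tested. Genes of 2 inhibitors that bind Wnt ligands rose in both genotypes, and the difference between the changes did not pass the edgeR test for either. Sfrp5 reached 5.05, 9.50 and 1.75 TPM in d3ko and 40.2 to 188 TPM in d3con, and Frzb 0.75, 13.5 and 2.07 TPM and 38.6 to 57.6 TPM in d3con. When 1 library was omitted, members risen and fallen numbered 3 and 1 without d0ko replicate 1, 4 and 1 without d0ko replicate 2 and 16 and 2 without d3ko replicate 3. The call of Wnt3 (adjusted p = 0.053), Fzd7 (adjusted p = 0.087), Fzd2 (adjusted p = 0.076), Sfrp5 (adjusted p = 0.14) and Frzb (adjusted p = 0.12) was lost without d0ko replicate 1. Without d0ko replicate 2 the call was lost for Fzd7 (adjusted p = 0.077), Fzd2 (adjusted p = 0.078), Sfrp5 (adjusted p = 0.14) and Frzb (adjusted p = 0.093). Sfrp5 (adjusted p = 0.062) did not pass without d3ko replicate 2. The log2 fold change without d3ko replicate 2 was 3.47 for Frzb, still past the test.

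**Figure D2:**
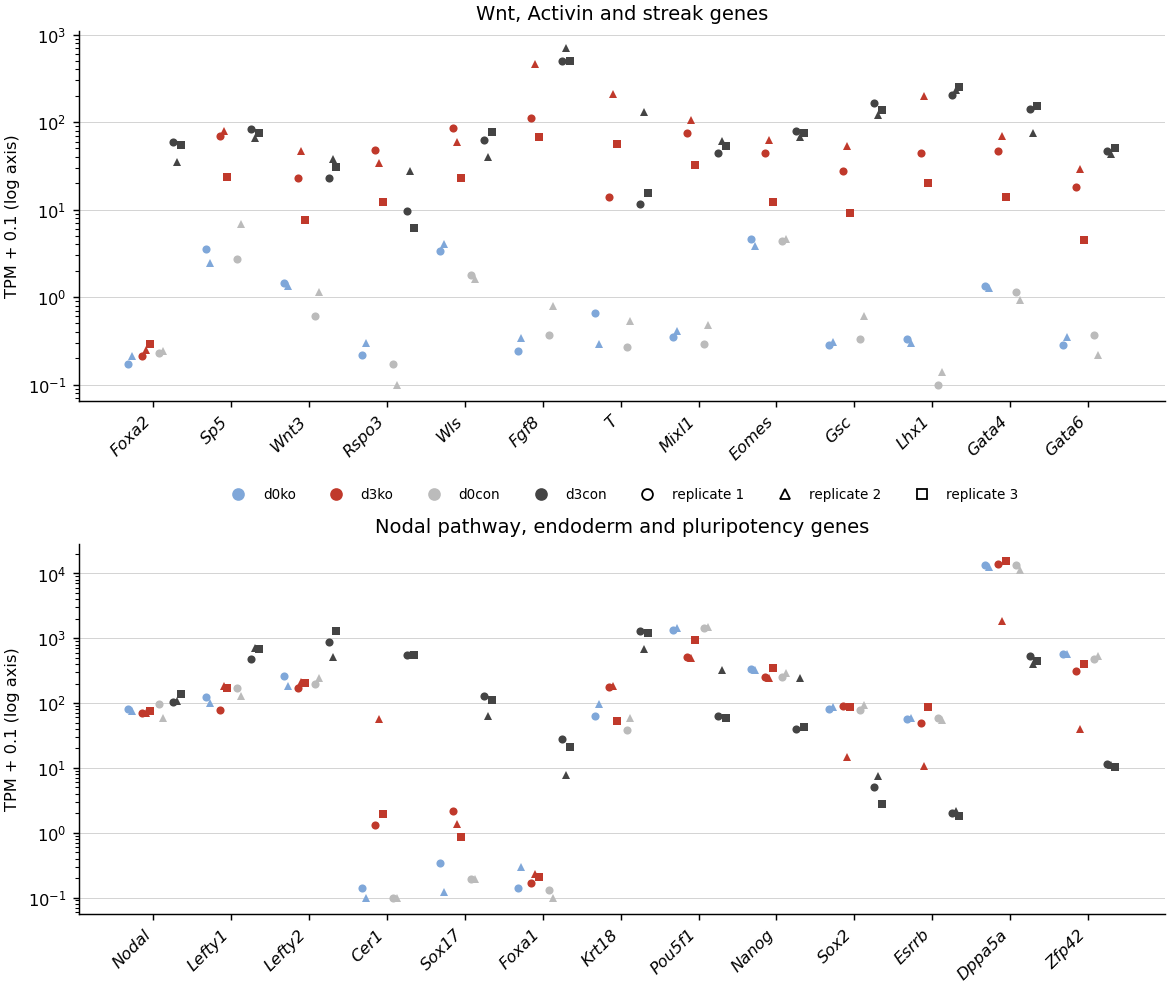
Level of 26 named genes in each library, as TPM + 0.1 on a log axis, with d0ko in blue, d3ko in red, d0con in light grey and d3con in dark grey, and circles, triangles and squares for replicates 1, 2 and 3. Sp5, Fgf8, Mixl1 and Gsc are far above d0ko in all 3 red symbols, Foxa1 and Foxa2 stay near 0 in red, and the red triangle (d3ko replicate 2) is the low one of Sox2, Esrrb, Dppa5a and Zfp42.

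Genes of the Nodal pathway, whose receptors Activin A uses, changed unevenly. Among 13 ligands, receptors and Smads 3 rose and 1 fell, where 11.6% of all genes tested rose and 5.72% fell. Of the 11 targets 6 rose and 0 fell, with a median of 3.11 on the log2 scale. The controls had 9 targets risen, 1 fallen and a median of 3.88. Nodal itself did not pass the test, with 82.3 and 75.1 TPM in d0ko and 70.1, 70.2 and 76.7 TPM in d3ko (log2 fold change -0.29, adjusted p = 0.29), and its antagonists Lefty1 (124 and 102 TPM in d0ko and 76.9, 182 and 174 TPM in d3ko; log2 fold change 0.17, adjusted p = 0.71) and Lefty2 (258 and 182 TPM in d0ko and 172, 210.3 and 204 TPM in d3ko; log2 fold change -0.34, adjusted p = 0.44) overlapped between the groups. In d3con Lefty1 was at 475, 699 and 672 TPM and Lefty2 at 877, 511 and 1302 TPM, and both rose there (log2 fold changes 1.83 ± 0.34 and 1.81 ± 0.35). The homeobox and T-box genes among the risen targets (Mixl1, Gsc, Lhx1 and Eomes) are described with the streak factors. Of the transducers, the co-receptor gene Cfc1 rose (27.2, 81.0 and 8.0 TPM in d3ko against 0.35 and 2.04 TPM in d0ko; log2 fold change 4.86, adjusted p = 0.0097), as did Foxh1, the partner of Smads (log2 fold change 1.07 ± 0.27, adjusted p = 0.018), and Furin, which cleaves the Nodal precursor (log2 fold change 1.25 ± 0.37, adjusted p = 0.032). Gdf3, a ligand of naive cells, fell from 179 and 166 TPM to 64.5, 9.72 and 82.1 TPM (log2 fold change -1.89, adjusted p = 0.047), a call that was lost with the replicate number as a block (adjusted p = 0.055). Cfc1 (adjusted p = 0.09), Foxh1 (log2 fold change 0.99, adjusted p = 0.14), Furin (log2 fold change 0.89, adjusted p = 0.23) and Gdf3 (adjusted p = 0.18) no longer passed without d0ko replicate 1. The call of Foxh1 (adjusted p = 0.087), Furin (adjusted p = 0.056) and Gdf3 (adjusted p = 0.13) was lost without d0ko replicate 2. Foxh1 (log2 fold change 0.74, adjusted p = 0.015) did not keep the call without d3ko replicate 2. Furin (adjusted p = 0.07) and Gdf3 (adjusted p = 0.075) did not pass without d3ko replicate 1. Refitted without 1 library, transducer genes risen and fallen numbered 0 and 0 without d0ko replicate 1, 1 and 0 without d0ko replicate 2, 3 and 0 without d3ko replicate 1 and 6 and 1 without d3ko replicate 3. Without d3ko replicate 2 the difference from the controls passed for 5 of the 11 targets in the direction of a smaller change in the knockout and for 1 in the other direction. In DESeq2 with all libraries these numbers were 2 and 0.

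Most primitive streak factors rose. Of 11 tested members 9 rose and 0 fell, with a median log2 fold change of 6.24, and the controls had 9, 0 and 4.83. Mixl1, a homeobox factor of mesendoderm, had 0.25 and 0.31 TPM in d0ko and 75.0, 105 and 32.5 TPM in d3ko (log2 fold change 7.79 ± 0.62 (SE), adjusted p = 0.00049). Gsc, the organizer homeobox factor, had 0.18 and 0.21 TPM in d0ko and 27.2, 52.7 and 9.09 TPM in d3ko (log2 fold change 7.0 ± 0.90 (SE), adjusted p = 0.0015), and Lhx1, which acts in the anterior streak, 44.5, 201 and 19.8 TPM in d3ko against 0.23 and 0.2 TPM in d0ko (log2 fold change 8.46 ± 1.19 (SE), adjusted p = 0.0019). For these 3 genes no d3ko library came near d0ko, and the spread among d3ko libraries was widest for Lhx1. Fgf8, the ligand that drives cells out of the streak, had 0.14 and 0.24 TPM in d0ko and 111, 466 and 67.1 TPM in d3ko (log2 fold change 9.98 ± 1.22 (SE), adjusted p = 0.0012). T, the T-box factor of the streak, had 0.55 and 0.19 TPM in d0ko and 13.7, 212 and 55.7 TPM in d3ko (log2 fold change 7.73 ± 1.79 (SE), adjusted p = 0.013), and Eomes, its relative needed for endoderm, 44.8, 63.2 and 12.1 TPM in d3ko against 4.53 and 3.70 TPM in d0ko (log2 fold change 3.11 ± 0.58 (SE), adjusted p = 0.0059). Mesp1, a factor of early mesoderm, rose to 5.87, 64.8 and 6.48 TPM (log2 fold change 6.25, adjusted p = 0.017). In the controls T had 0.17 and 0.43 TPM in d0con and 11.4, 131 and 15.5 TPM in d3con, where replicate 2 was also the high one, and Mixl1 44.1 to 60.0 TPM in d3con. Over the members the median log2 difference of each d3ko library from the d0ko mean was 3.24, 5.65 and 2.58, so that the clone C17 library was highest. T (adjusted p = 0.094), Eomes (adjusted p = 0.056) and Mesp1 (adjusted p = 0.13) no longer passed without d0ko replicate 1. The call of T (adjusted p = 0.099), Eomes (adjusted p = 0.058) and Mesp1 (adjusted p = 0.088) was lost without d0ko replicate 2. After leaving 1 library out, factors risen and fallen numbered 4 and 0 without d0ko replicate 1 and without d0ko replicate 2. Without d3ko replicate 2, 7 factors rose, with a median of 4.22. The interaction passed for 1 streak factor, Lhx1, without d3ko replicate 2 and for 0 in the edgeR and DESeq2 fits of all libraries, where 0 also had an unadjusted edgeR p under 0.05.

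Definitive endoderm genes rose in part. Of 18 tested, 7 rose and 0 fell (median log2 fold change 1.16), against 17 risen, 1 fallen and a median of 4.03 in the controls. Although the labels call the d3ko libraries endoderm cells, the defining factors Sox17 and Foxa1 were low in them against d3con. Sox17, the SoxF factor of endoderm, had 0.24 and 0.02 TPM in d0ko and 2.10, 1.25 and 0.76 TPM in d3ko (log2 fold change 3.15 ± 0.75 (SE), adjusted p = 0.015) beside 62.4 to 130.5 TPM in d3con. Foxa1, the Foxa2 paralogue, had 0.04 and 0.2 TPM in d0ko and 0.07, 0.13 and 0.11 TPM in d3ko and did not pass the test (log2 fold change -0.37, adjusted p = 0.78) beside 7.72 to 28.0 TPM in d3con. Cer1, a secreted antagonist of Nodal and Wnt, had 1 count in d0ko over both libraries and 1.22, 56.4 and 1.87 TPM in d3ko, where replicate 2 was by far the highest. The ratio of d3ko to d0ko was 717-fold, 95% interval 129 to 28310 by counting error, and the controls reached 544 to 548 TPM in d3con. The Gata factors, which act in mesoderm as well as endoderm, rose as well, with 1.24 and 1.18 TPM in d0ko and 46.2, 69.0 and 13.8 TPM in d3ko for Gata4 (log2 fold change 4.97 ± 0.70 (SE), adjusted p = 0.002) and 0.18 and 0.25 TPM in d0ko and 18.3, 28.9 and 4.34 TPM in d3ko for Gata6 (log2 fold change 6.16 ± 0.85 (SE), adjusted p = 0.0019). Cxcr4, a chemokine receptor of mesendoderm, had 11.5, 31.7 and 3.51 TPM in d3ko against 0.39 and 0.66 TPM in d0ko (log2 fold change 4.70, adjusted p = 0.0072), and Kit, a receptor of ES cells and endoderm, 37.4, 30.9 and 59.9 TPM in d3ko against 14.6 and 17.8 TPM in d0ko (log2 fold change 1.24, adjusted p = 0.018). The epithelial keratin Krt18 overlapped between d0ko and d3ko (62.0 and 95.5 TPM in d0ko and 180.1, 180.4 and 53.6 TPM in d3ko), while it was at 1298, 671 and 1223 TPM in d3con. Cer1 (adjusted p = 0.17), Cxcr4 (adjusted p = 0.08) and Kit (adjusted p = 0.14) did not keep the call without d0ko replicate 1. The log2 fold change without d0ko replicate 1 was 5.51 for Sox17, still past the test. Sox17 (adjusted p = 0.091), Cer1 (adjusted p = 0.16), Cxcr4 (adjusted p = 0.054) and Kit (adjusted p = 0.082) did not pass without d0ko replicate 2. Kit (log2 fold change 0.92, adjusted p = 0.028) no longer passed without d3ko replicate 3. The ratio without d3ko replicate 2 was 67.2-fold for Cer1 (95% interval 12.1 to 2656). It was 1224-fold for Cer1 (95% interval 219.7 to 48350) without d3ko replicate 3. With the replicate block the Kit call was lost on its size, at an adjusted p of 0.0098. With 1 library left out, endoderm genes risen and fallen numbered 3 and 0 without d0ko replicate 1, 2 and 0 without d0ko replicate 2 and 8 and 1 without d3ko replicate 3. The change was smaller in the knockout than in the controls for 9 members in edgeR without d3ko replicate 2 and for 11 in DESeq2 with all libraries, and 13 had an unadjusted interaction p under 0.05.

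Most mesoderm genes rose in both genotypes. Of 13 lateral and paraxial mesoderm genes 9 rose and 1 fell, with medians of 3.87 in the knockout and 3.79 in the controls (9 risen, 1 fallen). Kdr, the Vegf receptor of mesodermal and endothelial precursors, had 0.19 and 0.34 TPM in d0ko and 27.4, 35.4 and 4.82 TPM in d3ko (log2 fold change 6.23 ± 0.89 (SE), adjusted p = 0.0021) and 5.49 to 9.28 TPM in d3con. Msx1, a homeobox gene downstream of Bmp signals, had 0.76 and 1.60 TPM in d0ko and 81.7, 68.1 and 17.8 TPM in d3ko (log2 fold change 5.39 ± 0.77 (SE), adjusted p = 0.0021). Pdgfra, a receptor of paraxial mesoderm, had 8.76, 48.1 and 4.13 TPM in d3ko against 0.27 and 0.89 TPM in d0ko, with replicate 2 the highest (log2 fold change 4.96, adjusted p = 0.012). Hand2, a factor of lateral mesoderm, was at 0 counts in both d0ko libraries and at 0.94, 2.17 and 0.48 TPM in d3ko, at least 19.4-fold higher against a floor of 3 counts over the d0ko group. Of 10 Bmp ligands and response genes 5 rose and 4 fell. Bmp2 had 55.0, 30.1 and 6.36 TPM in d3ko against 0.02 and 0 TPM in d0ko, with 1 count in d0ko (2254-fold, 95% interval 405 to 89030), while Bmp4 fell from 140 and 111 to 55.1, 18.5 and 49.2 TPM (log2 fold change -1.78, adjusted p = 0.019). Of the Id genes, which are induced by Bmp and hold back differentiation, Id1 (log2 fold change -1.45, adjusted p = 0.014), Id3 (log2 fold change -1.07, adjusted p = 0.038) and Id2 fell, the last from 48.7 and 69.8 to 6.98, 8.51 and 3.72 TPM (log2 fold change -3.39, adjusted p = 0.00076). The call of Pdgfra (adjusted p = 0.11), Hand2 (adjusted p = 0.063), Bmp4 (adjusted p = 0.12), Id1 (adjusted p = 0.09) and Id3 (log2 fold change -0.79, adjusted p = 0.25) was lost without d0ko replicate 1. Pdgfra (adjusted p = 0.057), Hand2 (adjusted p = 0.053), Bmp4 (adjusted p = 0.063), Id1 (adjusted p = 0.063) and Id3 (adjusted p = 0.074) did not keep the call without d0ko replicate 2. Id3 (log2 fold change -0.94, adjusted p = 0.08) did not pass without d3ko replicate 2. Id3 (log2 fold change -0.85, adjusted p = 0.075) no longer passed without d3ko replicate 3. In leave-one-out fits, mesoderm genes risen and fallen numbered 2 and 0 without d0ko replicate 1 and 3 and 0 without d0ko replicate 2. When 1 library was omitted, Bmp genes risen and fallen numbered 2 and 1 without d0ko replicate 1 and without d0ko replicate 2. The ratio without d3ko replicate 1 was 1336-fold for Bmp2 (95% interval 239.8 to 52780). It was 3612-fold for Bmp2 (95% interval 648 to 142600) without d3ko replicate 3. The ratio without d3ko replicate 2 was at least 11.7-fold for Hand2.

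Genes of the epithelial to mesenchymal transition changed alongside. Of 15 cadherin and transition genes 8 rose and 1 fell, beside 9 and 1 in the controls. N-cadherin (Cdh2) rose (2.11 and 3.45 TPM in d0ko and 34.7, 57.0 and 10.5 TPM in d3ko; log2 fold change 3.45 ± 0.67 (SE), adjusted p = 0.0068), and so did the intermediate filament gene Vim (43.0 and 41.6 TPM in d0ko and 357, 273 and 157 TPM in d3ko; log2 fold change 2.46 ± 0.37 (SE), adjusted p = 0.0024) and the repressor of epithelial genes Zeb2 (log2 fold change 4.79 ± 0.77, adjusted p = 0.0032). Fibronectin (Fn1), a matrix protein, had 497, 531 and 301 TPM in d3ko against 91.5 and 133 TPM in d0ko and rose (log2 fold change 1.83, adjusted p = 0.0093), where d3con was at 98.2, 226 and 107 TPM. E-cadherin (Cdh1) overlapped between the groups (354 and 356 TPM in d0ko and 214, 217 and 372 TPM in d3ko; log2 fold change -0.57, adjusted p = 0.082), and the epithelial splicing factor gene Esrp2 fell (22.8 and 27.5 TPM in d0ko and 4.47, 2.27 and 7.73 TPM in d3ko; log2 fold change -2.54, adjusted p = 0.0067). Vim and Fn1 are also made by fibroblasts. Refitted without 1 library, genes of this list risen and fallen numbered 2 and 1 without d0ko replicate 1, 4 and 1 without d0ko replicate 2 and 8 and 2 without d3ko replicate 3. The Fgf ligand of the formative epiblast, Fgf5, rose as well (4.25 and 2.68 TPM in d0ko and 39.3, 223 and 16.3 TPM in d3ko; log2 fold change 4.55, adjusted p = 0.013). Among 19 Fgf ligands, receptors and Erk feedback genes 2 rose and 2 fell, the feedback inhibitor Spry4 among the latter (44.0 and 35.3 TPM in d0ko and 14.9, 20.1 and 23.7 TPM in d3ko; log2 fold change -1.19, adjusted p = 0.0071), beside 11.6% and 5.72% of all genes. After leaving 1 library out, Fgf list genes risen and fallen numbered 1 and 0 without d0ko replicate 1, 1 and 1 without d0ko replicate 2 and 2 and 1 without d3ko replicate 1. The call of Cdh2 (adjusted p = 0.078), Fn1 (adjusted p = 0.096), Fgf5 (adjusted p = 0.09) and Spry4 (adjusted p = 0.078) was lost without d0ko replicate 1. Without d0ko replicate 2 the call was lost for Fgf5 (adjusted p = 0.1). The log2 fold change without d3ko replicate 2 was 2.85 for Fgf5, still past the test.

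**Figure D3:**
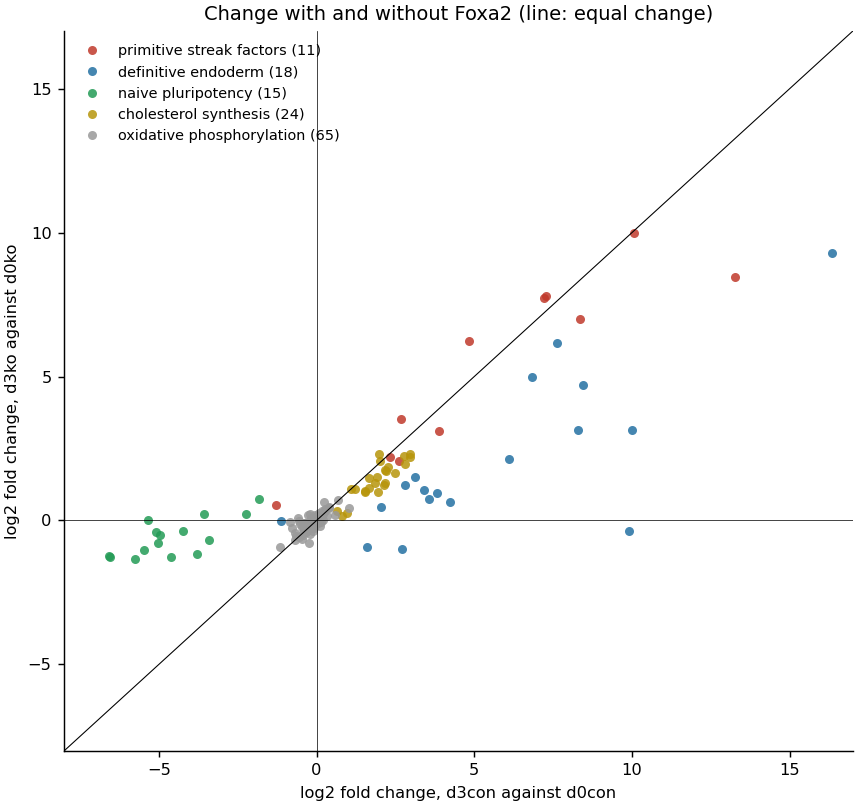
Log2 fold change of d3ko against d0ko (vertical axis) and of d3con against d0con (horizontal axis) for the tested members of 5 gene lists, 1 point a gene, with the line of equal change. Cholesterol and most streak genes lie near the line and most endoderm genes below it. Naive pluripotency genes have a median of -0.69 on the vertical axis and lie at -1.82 to -6.60 on the horizontal one.

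Naive pluripotency genes did not pass the test in the knockout. None of 15 naive pluripotency genes was called in edgeR, where 0 had an unadjusted p under 0.05, in DESeq2 on the same libraries (0) or in limma (0), and the median log2 fold change was -0.69. In the controls all 15 fell, with a median of -4.96. The 3 day 3 ko libraries were unlike each other here. The summed TPM of the list was 15400 and 14990 in d0ko and 16010, 2124 and 17810 in d3ko. Zfp42 (Rex1), a marker of naive cells, had 575 and 568 TPM in d0ko and 309, 40.0 and 400.1 TPM in d3ko and 10.3 to 11.2 TPM in d3con. Esrrb, an orphan nuclear receptor of the naive network, had 57.4 and 58.8 TPM in d0ko and 50, 10.5 and 85.4 TPM in d3ko and 1.69 to 2.09 TPM in d3con, and Klf4, a factor of the same network, 27.1 and 27.9 TPM in d0ko and 55.1, 5.74 and 46.2 TPM in d3ko. In each of these genes d3ko replicate 2 was lowest, above the d3con range, and both libraries of clone C9 stayed within 2-fold of d0ko for Esrrb. Over the list, the median log2 change within clone C9 was -0.35 for replicate 1 and 0.03 for replicate 3, and within clone C17 -2.79. Without d3ko replicate 2 the median of the fitted log2 fold changes was -0.26, 1 gene, Tbx3, rose, and the difference from the controls passed for all 15 genes. DESeq2 called that difference for 13 with all libraries. With the clone as a block the median was -1.36 and 1 gene fell.

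Of 10 core pluripotency genes 3 fell (5.72% of all genes tested did), against 6 in the controls, and none rose. Pou5f1 (Oct4), the central factor, had 1335 and 1457 TPM in d0ko and 522, 501 and 944 TPM in d3ko, below both d0ko libraries in every d3ko library without passing the test (log2 fold change -1.26, adjusted p = 0.16), and 59.7 to 319 TPM in d3con. Nanog overlapped between the groups (335 and 327 TPM in d0ko and 254, 240.1 and 345 TPM in d3ko; log2 fold change -0.40, adjusted p = 0.67). Dppa2, which keeps developmental promoters open, fell (184 and 169 TPM in d0ko and 43.3, 4.27 and 65.5 TPM in d3ko; log2 fold change -2.38, adjusted p = 0.039), as did Sall4, a zinc finger partner of Oct4 (306 and 231 TPM in d0ko and 122, 195 and 136 TPM in d3ko; log2 fold change -1.02, adjusted p = 0.0078), and Utf1 (log2 fold change -1.92, adjusted p = 0.049), whose call was lost with the replicate block (adjusted p = 0.069). Dppa2 (adjusted p = 0.15), Sall4 (log2 fold change -0.78, adjusted p = 0.09) and Utf1 (adjusted p = 0.18) did not pass without d0ko replicate 1. Dppa2 (adjusted p = 0.12) and Utf1 (adjusted p = 0.13) no longer passed without d0ko replicate 2. The call of Dppa2 (adjusted p = 0.079), Sall4 (log2 fold change -0.89, adjusted p = 0.021) and Utf1 (adjusted p = 0.12) was lost without d3ko replicate 1. Sall4 (log2 fold change -0.95, adjusted p = 0.016) did not keep the call without d3ko replicate 3. With 1 library left out, core genes risen and fallen numbered 0 and 0 without d0ko replicate 1 and without d3ko replicate 1 and 0 and 1 without d0ko replicate 2.

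Germline and meiosis genes, part of which ES cells express, fell in part. Of 14 tested 7 fell (median -2.27), beside all 14 in the controls (median -5.09). Zp3, an egg coat protein, fell from 24.1 and 32.2 to 1.72, 0.56 and 4.53 TPM (log2 fold change -3.76 ± 0.69 (SE), adjusted p = 0.0052), and the germline helicase gene Ddx4 from 36.6 and 37.9 to 5.37, 1.91 and 14.1 TPM (log2 fold change -2.54, adjusted p = 0.014). In leave-one-out fits, germline genes risen and fallen numbered 0 and 3 without d0ko replicate 1 and 0 and 1 without d0ko replicate 2. The median log2 difference of each d3ko library from the d0ko mean was -1.64, -3.04 and -1.24, and the fall was smaller than in the controls for 11 genes without d3ko replicate 2 (edgeR) and for 9 in DESeq2 with all libraries. Of 9 DNA methylation genes 2 fell and 1 rose, where 5.72% of all genes tested fell and 11.6% rose. Dnmt3l, a cofactor of the de novo methyltransferases, fell to 208, 49.5 and 270.4 from 732 and 685 TPM (log2 fold change -2.17, adjusted p = 0.019) and Dnmt3b, the methyltransferase of the epiblast, to 43.6, 125 and 80.3 from 204 and 201 TPM (log2 fold change -1.47, adjusted p = 0.011). Ddx4 (adjusted p = 0.076), Dnmt3l (adjusted p = 0.099) and Dnmt3b (adjusted p = 0.076) did not pass without d0ko replicate 1. Ddx4 (adjusted p = 0.064), Dnmt3l (adjusted p = 0.074) and Dnmt3b (adjusted p = 0.058) no longer passed without d0ko replicate 2. When 1 library was omitted, methylation genes risen and fallen numbered 0 and 0 without d0ko replicate 1 and without d0ko replicate 2 and 2 and 2 without d3ko replicate 3.

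**Figure D4:**
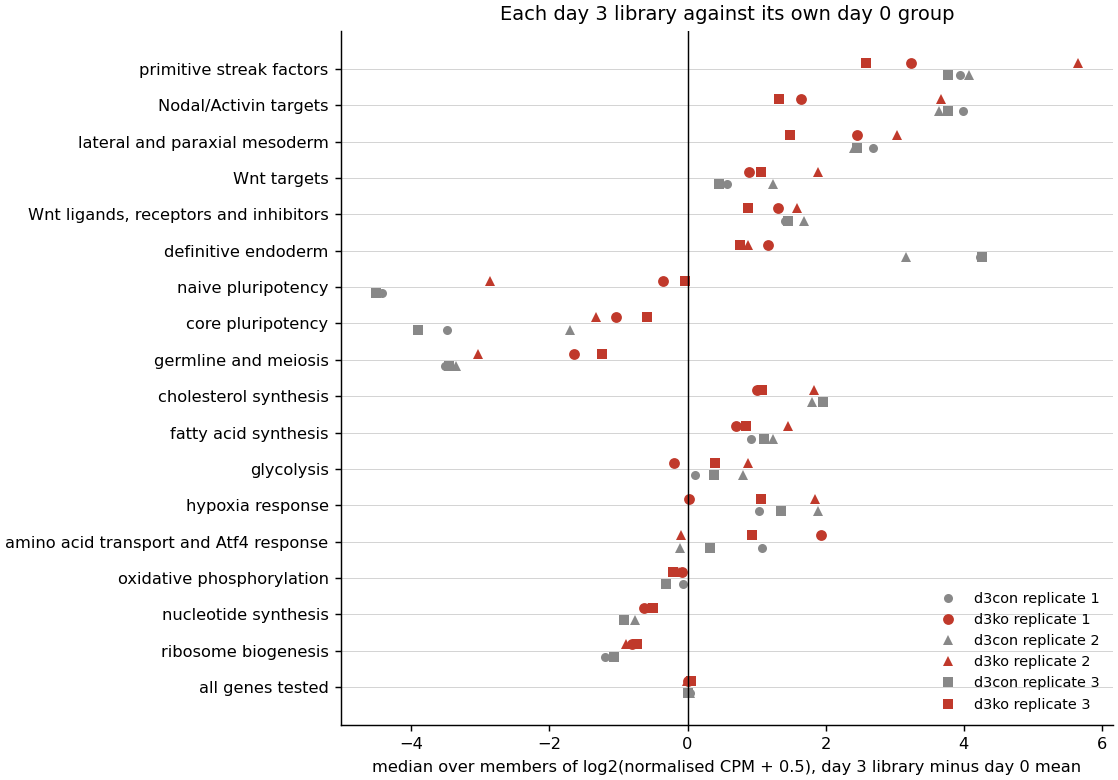
Median over the tested members of 17 gene lists and over all genes of the log2 difference between each day 3 library and the mean of its own day 0 group (horizontal axis, log2 of normalised CPM + 0.5), for d3ko (red) and d3con (grey), with circles, triangles and squares for replicates 1, 2 and 3. The red triangle, clone C17, lies at -2.86 for naive pluripotency, apart from -0.35 and -0.04 for clone C9, and at 1.84 for the hypoxia response.

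Among metabolic genes, most of cholesterol synthesis rose. Of 24 genes of sterol synthesis, uptake and control 19 rose and 0 fell, with a median log2 fold change of 1.39, and 21 rose in the controls, with a median of 1.98. Hmgcs1, an enzyme early in the pathway, had 70.2 and 88.1 TPM in d0ko and 219, 613 and 217 TPM in d3ko (log2 fold change 1.97 ± 0.42 (SE), adjusted p = 0.0099). Msmo1, which removes methyl groups from the sterol ring, had 99.2 and 94.1 TPM in d0ko and 496, 489.9 and 572 TPM in d3ko. Its 3 d3ko levels lay close together and far above d0ko (log2 fold change 2.25 ± 0.14 (SE), adjusted p = 0.00018). Cyp51, the sterol demethylase that acts earlier, had 23.9 and 25.4 TPM in d0ko and 109, 176 and 98.6 TPM in d3ko (log2 fold change 2.20 ± 0.24 (SE), adjusted p = 0.00084). The regulators moved with the enzymes. Srebf2, the transcription factor of sterol genes, had 37.0 and 41.3 TPM in d0ko and 229, 207 and 117 TPM in d3ko (log2 fold change 2.07 ± 0.27 (SE), adjusted p = 0.0016), and Insig1, which holds that factor back when sterols are plentiful, 67.8, 94.5 and 94.5 TPM in d3ko against 15.5 and 15.5 TPM in d0ko (log2 fold change 2.29 ± 0.21 (SE), adjusted p = 0.00066). Among the members that were not called, Mvk, Pmvk, Hsd17b7 and Ebp had log2 fold changes of 0.28, 0.98, 0.98 and 0.17. Each d3ko library had a positive median over the list, 1.01, 1.83 and 1.08. Refitted without 1 library, sterol genes risen and fallen numbered 10 and 0 without d0ko replicate 1, 11 and 0 without d0ko replicate 2 and 12 and 0 without d3ko replicate 2. The call of Hmgcs1 (adjusted p = 0.095) was lost without d0ko replicate 1. Without d0ko replicate 2 the call was lost for Hmgcs1 (adjusted p = 0.06). The controls' rise was larger for 6 members in edgeR without d3ko replicate 2 and for 0 in DESeq2 with all libraries, where 6 members had an unadjusted edgeR interaction p under 0.05.

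The 250 bases before the start sites of 4 sterol genes that rose are shown (RefSeq, GRCm38.p6, 5′ to 3′ on the strand of the gene) because most of the list rose together. The CCAAT box, which the factor NF-Y reads, or its other-strand form ATTGG is in capitals. The stretches are chr13:119690101-119690350, plus strand for Hmgcs1, chr8:64733579-64733828, minus strand for Msmo1, chr5:28071162-28071411, plus strand for Insig1 and chr5:4104698-4104947, minus strand for Cyp51.
Hmgcs1: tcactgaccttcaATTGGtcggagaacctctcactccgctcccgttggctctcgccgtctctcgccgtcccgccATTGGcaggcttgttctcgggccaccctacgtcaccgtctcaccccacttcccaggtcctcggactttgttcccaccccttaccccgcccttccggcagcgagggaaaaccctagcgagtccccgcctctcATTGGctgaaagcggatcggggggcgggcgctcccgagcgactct
Msmo1: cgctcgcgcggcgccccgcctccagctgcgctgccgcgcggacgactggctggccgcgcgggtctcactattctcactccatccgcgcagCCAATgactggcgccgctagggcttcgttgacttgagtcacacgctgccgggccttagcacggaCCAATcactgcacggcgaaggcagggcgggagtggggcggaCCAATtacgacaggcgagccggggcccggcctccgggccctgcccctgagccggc
Insig1: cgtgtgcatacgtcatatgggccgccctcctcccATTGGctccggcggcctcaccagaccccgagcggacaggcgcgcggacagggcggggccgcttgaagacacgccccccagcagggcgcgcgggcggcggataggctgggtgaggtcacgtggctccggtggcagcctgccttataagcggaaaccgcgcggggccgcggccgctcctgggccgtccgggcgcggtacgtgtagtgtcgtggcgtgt
Cyp51: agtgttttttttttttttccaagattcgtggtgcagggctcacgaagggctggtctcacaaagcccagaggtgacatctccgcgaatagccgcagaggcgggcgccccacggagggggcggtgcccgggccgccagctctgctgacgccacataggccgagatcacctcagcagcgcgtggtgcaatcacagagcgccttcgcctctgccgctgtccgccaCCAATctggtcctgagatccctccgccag
Of the 17 members with a promoter sequence 16 held the box on either strand (94.1%), against 37.5% of all genes' stretches of this length. These 16 included Mvk, Pmvk, Hsd17b7 and Ebp, which were not called, so the box was not limited to members that rose. As for the Tcf/Lef core, a match is a description of letters and not a binding site. In Hmgcs1 and Msmo1 the box occurred 3 times, and in Cyp51 it lay 25 bases before the start. The other lists had 28.6% (glycolysis, 6 of 21) to 50% (hypoxia response, 7 of 14), and 41.5% of the oxidative phosphorylation genes held it.

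**Figure D5:**
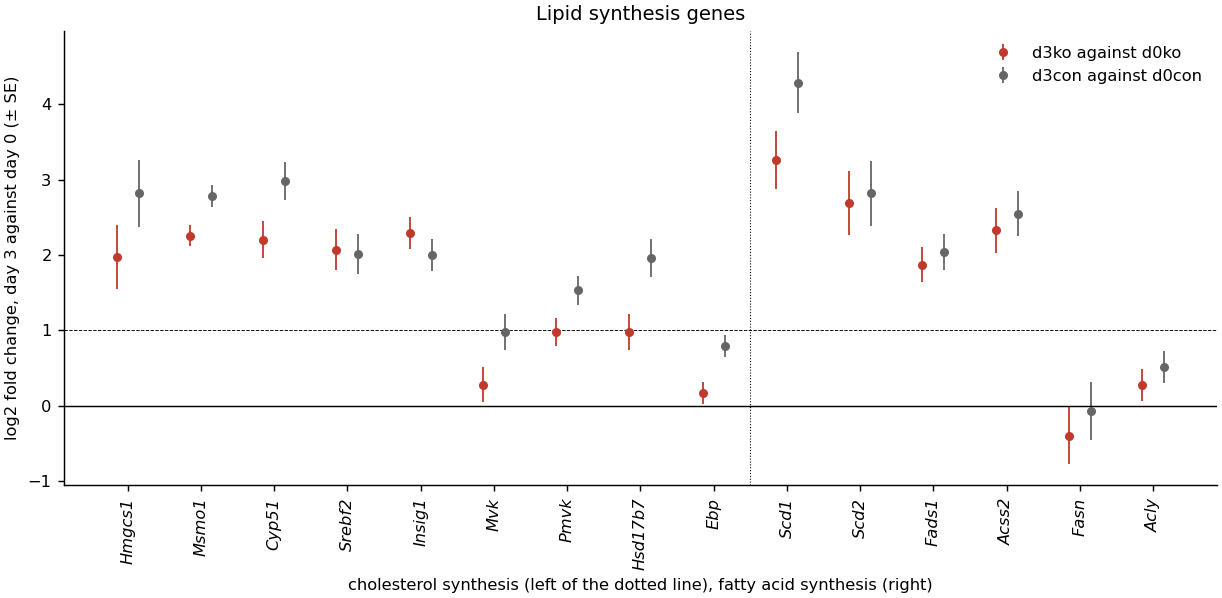
Log2 fold change at day 3 (vertical axis, points, with bars of ± 1 SE) of the 9 cholesterol genes and 6 fatty acid genes given with values here, for d3ko against d0ko (red) and d3con against d0con (grey), with a dashed line at a log2 fold change of 1. The 9 cholesterol genes lie above 0 in both genotypes, and Scd1 and Scd2 are highest among the 6 fatty acid genes.

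Fatty acid genes rose in part, the desaturases among them. Of 13 members 5 rose and 0 fell, beside 8 and 0 in the controls. Scd1 had 7.07 and 6.83 TPM in d0ko and 62.0, 120.2 and 43.2 TPM in d3ko (log2 fold change 3.26 ± 0.39 (SE), adjusted p = 0.0011) and Scd2 318, 812 and 304 TPM in d3ko against 71.9 and 59.1 TPM in d0ko (log2 fold change 2.69 ± 0.42 (SE), adjusted p = 0.003), both stearoyl-CoA desaturases. Fads1, which desaturates longer chains, rose by 1.87 ± 0.23 (adjusted p = 0.0013), and Acss2, which makes acetyl-CoA from acetate, by 2.33 ± 0.30 (adjusted p = 0.0014). The synthase itself, Fasn, overlapped between the groups (138 and 108 TPM in d0ko and 75.1, 177 and 63.3 TPM in d3ko; log2 fold change -0.40, adjusted p = 0.44), as did Acly, which makes acetyl-CoA from citrate (301 and 273 TPM in d0ko and 279, 512 and 385 TPM in d3ko). In fatty acid oxidation 2 of 14 genes rose, beside 11.6% of all genes tested: Acadl (13.0 and 16.6 TPM in d0ko and 42.4, 62.2 and 40.8 TPM in d3ko; log2 fold change 1.54, adjusted p = 0.0019) and Cpt2 (log2 fold change 1.46, adjusted p = 0.012). After leaving 1 library out, oxidation genes risen and fallen numbered 1 and 0 without d0ko replicate 1 and without d0ko replicate 2 and 2 and 1 without d3ko replicate 3. Cpt1a, the carnitine transferase that gates entry into mitochondria, had 13.8 and 15.3 TPM in d0ko and 26.5, 7.54 and 57.7 TPM in d3ko, low in replicate 2 and high in replicates 1 and 3, and 1.18 to 2.31 TPM in d3con. Apoe, which encodes a lipid carrier, showed the same order among d3ko libraries without passing the test (607 and 746 TPM in d0ko and 2069, 693 and 2576 TPM in d3ko; log2 fold change 1.23, adjusted p = 0.091), and Apob was at or below 0.15 TPM in all ko libraries. None of 5 lipoprotein and lipid transport genes was called in edgeR, where 2 had an unadjusted p under 0.05, and the counts were 1 risen and 1 fallen in DESeq2 and 0 and 0 in limma. Cpt2 (adjusted p = 0.096) did not pass without d0ko replicate 1. Cpt2 (adjusted p = 0.075) no longer passed without d0ko replicate 2.

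Glycolysis changed in few genes and unevenly among libraries. Of 22 members 3 rose (11.6% of all genes tested did) and 0 fell, with a median of 0.48 on the log2 scale, beside 4 risen and 2 fallen in the controls. Aldoc, a minor aldolase, had 25.1 and 24.0 TPM in d0ko and 101, 162 and 179 TPM in d3ko (log2 fold change 2.41 ± 0.30 (SE), adjusted p = 0.0013), and Eno2, the enolase of neurons, 8.71, 9.98 and 19.9 TPM in d3ko against 1.85 and 1.44 TPM in d0ko (log2 fold change 2.79 ± 0.45 (SE), adjusted p = 0.0034). Pgk1, which makes the first ATP of the pathway, had 865 and 841 TPM in d0ko and 1465, 2579 and 1768 TPM in d3ko (log2 fold change 1.01, adjusted p = 0.02). The call of Pgk1 (adjusted p = 0.12) was lost without d0ko replicate 1. Pgk1 (log2 fold change 0.96, adjusted p = 0.12) did not keep the call without d0ko replicate 2. Pgk1 (log2 fold change 0.77, adjusted p = 0.03) did not pass without d3ko replicate 2. With 1 library left out, glycolysis genes risen and fallen numbered 2 and 0 (median 0.22) without d3ko replicate 2. The more abundant enzymes overlapped between the groups. Pkm had 5063 and 4717 TPM in d0ko and 4098, 8069 and 6015 TPM in d3ko and Ldha 3979 and 3941 TPM in d0ko and 3786, 11130 and 4731 TPM in d3ko, with replicate 2 highest in both. The glucose transporter gene Slc2a1 had 861 and 849.5 TPM in d0ko and 344, 1362 and 657 TPM in d3ko, lowest in replicate 1 and highest in replicate 2. Gapdh had 312 and 323 TPM in d0ko and 3059, 445 and 372 TPM in d3ko, where the high value is the 75-base library, as in d3con (314 and 329.8 TPM in d0con and 3276, 461 and 320.4 TPM in d3con), and no direction is drawn from it.

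Hypoxia-responsive genes are induced by the factor Hif1 when oxygen is low. Their median followed the order of libraries seen in Pkm, Ldha and Slc2a1, but single genes such as Vegfa did not. Of 17 members 5 rose (11.6% of all genes tested did) and 0 fell (median 1.14), beside 10 and 0 in the controls (median 1.48). The vascular growth factor gene Vegfa had 5.17 and 6.53 TPM in d0ko and 57.1, 39.1 and 46.2 TPM in d3ko, well apart in all libraries (log2 fold change 2.86 ± 0.32 (SE), adjusted p = 0.00084), and the collagen hydroxylase gene P4ha1 63.8, 110 and 70.5 TPM in d3ko against 15.3 and 16.8 TPM in d0ko (log2 fold change 2.17 ± 0.25 (SE), adjusted p = 0.00093). Ero1l, an oxidase of protein folding, rose by 1.59 ± 0.25 (adjusted p = 0.0031), and Car9, a carbonic anhydrase, by 3.00 ± 0.58 (adjusted p = 0.0067). The stress gene Ddit4 was higher in replicates 2 and 3 alone and did not pass (42.2 and 63 TPM in d0ko and 44.9, 372 and 204 TPM in d3ko; log2 fold change 1.80, adjusted p = 0.17). The list's median log2 difference from the d0ko mean was 0.02, 1.84 and 1.07 in the d3ko libraries. From the d0con mean it was 1.03, 1.89 and 1.36 in the d3con libraries. In each genotype it was highest in replicate 2 and lowest in replicate 1. Car9 (adjusted p = 0.072) no longer passed without d0ko replicate 1. The call of Car9 (adjusted p = 0.058) was lost without d0ko replicate 2. In leave-one-out fits, hypoxia genes risen and fallen numbered 3 and 0 without d0ko replicate 1 and without d0ko replicate 2 and 5 and 0 (median 0.72) without d3ko replicate 2.

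The 250 bases before the start sites of P4ha1 (chr10:59323046-59323295, plus strand) and Pgk1 (chrX:106186850-106187099, plus strand) are shown (RefSeq, GRCm38.p6, 5′ to 3′) because both rose and carry the core of the element that Hif1 reads, ACGTG, or its other-strand form CACGT, in capitals.
P4ha1: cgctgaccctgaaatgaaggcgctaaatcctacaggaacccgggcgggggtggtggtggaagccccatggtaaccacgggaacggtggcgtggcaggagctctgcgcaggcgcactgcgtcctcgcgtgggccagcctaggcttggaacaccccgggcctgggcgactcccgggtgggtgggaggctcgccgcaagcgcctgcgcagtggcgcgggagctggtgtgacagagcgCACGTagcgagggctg
Pgk1: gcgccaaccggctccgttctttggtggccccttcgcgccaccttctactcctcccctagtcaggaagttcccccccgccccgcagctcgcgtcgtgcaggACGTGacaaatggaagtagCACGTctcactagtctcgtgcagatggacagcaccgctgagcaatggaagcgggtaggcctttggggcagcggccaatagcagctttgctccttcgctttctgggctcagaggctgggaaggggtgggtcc
Of the hypoxia genes with a promoter sequence 10 of 14 held the core on either strand (71.4%), and 11 of 21 glycolysis genes did (52.4%), against 18.5% of all genes and 0 of 10 streak factors. Genes that held it included Ddit4, Pkm, Ldha and Slc2a1, none of which was called. Here too a match is a description of letters and not a binding site.

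Few genes of mitochondrial energy metabolism passed the test. None of 65 oxidative phosphorylation genes was called in the knockout in edgeR (20 at an unadjusted p under 0.05), in DESeq2 on the same libraries (0) or in limma (0), with a median log2 fold change of -0.09, and 1 rose and 1 fell in the controls. Without d3ko replicate 2, 1 gene fell, the complex III subunit gene Uqcrh. In the tricarboxylic acid cycle 1 of 22 genes rose, beside 11.6% of all genes tested. It was Idh2, the mitochondrial isocitrate dehydrogenase that uses NADP (109 and 80.8 TPM in d0ko and 307, 198 and 434 TPM in d3ko; log2 fold change 1.55, adjusted p = 0.0088). Idh2 (adjusted p = 0.051) did not keep the call without d0ko replicate 1. Idh2 (adjusted p = 0.082) did not pass without d0ko replicate 2. When 1 library was omitted, cycle genes risen and fallen numbered 0 and 0 without d0ko replicate 1 and without d0ko replicate 2. Mdh2, the malate dehydrogenase of mitochondria, had 973 and 873 TPM in d0ko and 559, 658 and 570.5 TPM in d3ko, lower in every d3ko library but under the size threshold (log2 fold change -0.81 ± 0.12 (SE), adjusted p = 0.0025).

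Serine and amino acid genes rose in part, with another order of libraries. Of 16 serine, glycine and one-carbon genes 5 rose and 1 fell, beside 3 and 4 in the controls. Over all genes tested 11.6% rose and 5.72% fell in the knockout. Phgdh, the first enzyme of serine synthesis, had 179 and 177 TPM in d0ko and 609.9, 418 and 501 TPM in d3ko (log2 fold change 1.35 ± 0.21 (SE), adjusted p = 0.0026), and Mthfd2, a mitochondrial folate enzyme, 315, 159 and 278 TPM in d3ko against 88.5 and 89.7 TPM in d0ko (log2 fold change 1.33 ± 0.33 (SE), adjusted p = 0.017). Shmt1, the cytosolic serine hydroxymethyltransferase, fell (252 and 243 TPM in d0ko and 109, 107 and 167 TPM in d3ko; log2 fold change -1.12, adjusted p = 0.0044). Tdh, the threonine dehydrogenase on which naive mouse ES cells depend, had 959 and 892 TPM in d0ko and 468, 66.7 and 646 TPM in d3ko and did not pass (log2 fold change -1.40, adjusted p = 0.14), with 13.8 to 19.3 TPM in d3con. Of 15 amino acid transporters and genes of the Atf4 stress response 4 rose and 0 fell (median log2 fold change 1.26). The neutral amino acid transporter genes Slc1a4 (5.22 and 6.55 TPM in d0ko and 56.3, 40.3 and 33.5 TPM in d3ko; log2 fold change 2.72 ± 0.35 (SE), adjusted p = 0.0015) and Slc1a5 (29.8 and 30.5 TPM in d0ko and 236, 91.4 and 208 TPM in d3ko; log2 fold change 2.40 ± 0.39 (SE), adjusted p = 0.0032) rose, as did the asparagine synthetase gene Asns (284 and 309 TPM in d0ko and 1438, 624 and 1170 TPM in d3ko; log2 fold change 1.70, adjusted p = 0.0099) and Chac1, which degrades glutathione (log2 fold change 2.96 ± 0.65, adjusted p = 0.01). Replicate 2 was lowest of the d3ko libraries in Slc1a5, Asns and Mthfd2. The median log2 difference of the Atf4 list from the d0ko mean was 1.93, -0.09 and 0.94. Refitted without 1 library, Atf4 list genes risen and fallen numbered 2 and 0 without d0ko replicate 1 and without d0ko replicate 2, 4 and 0 (median 0.58) without d3ko replicate 1 and 8 and 0 without d3ko replicate 2. After leaving 1 library out, one-carbon genes risen and fallen numbered 1 and 1 without d0ko replicate 1 and without d0ko replicate 2, 4 and 2 without d3ko replicate 1 and 6 and 0 without d3ko replicate 2. Mthfd2 (adjusted p = 0.11), Asns (adjusted p = 0.088) and Chac1 (adjusted p = 0.093) no longer passed without d0ko replicate 1. The call of Mthfd2 (adjusted p = 0.1), Asns (adjusted p = 0.068) and Chac1 (adjusted p = 0.074) was lost without d0ko replicate 2. Shmt1 (log2 fold change -1.0, adjusted p = 0.0067) did not keep the call without d3ko replicate 2.

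Part of the ribosome biogenesis genes fell. Of 22 ribosome biogenesis genes 5 fell and none rose, and every tested member had a negative log2 fold change (median -0.80, with 13 fallen and a median of -1.19 in the controls). Nop2, a methyltransferase of ribosomal RNA, had 318 and 294 TPM in d0ko and 149, 125 and 123 TPM in d3ko (log2 fold change -1.38 ± 0.13 (SE), adjusted p = 0.00069), and Polr1b, a subunit of RNA polymerase I, 43.3, 53.5 and 49.5 TPM in d3ko against 107 and 98.8 TPM in d0ko (log2 fold change -1.25 ± 0.13 (SE), adjusted p = 0.00076). Bop1 and Nhp2, which act on the large subunit and in small nucleolar particles, fell by 1.30 and 1.18 on the log2 scale. The 3 d3ko libraries lay close together in this list, with medians of -0.81, -0.89 and -0.73. Of 18 nucleotide synthesis genes 2 fell (5.72% of all genes tested did) and none rose (median -0.53), with 8 fallen in the controls. With 1 library left out, nucleotide genes risen and fallen numbered 0 and 1 without d0ko replicate 1, without d3ko replicate 1 and without d3ko replicate 2. Among 22 pentose phosphate and redox genes 3 rose and 4 fell, where 11.6% of all genes tested rose and 5.72% fell. Gpx1, the main glutathione peroxidase of the cytosol, had 2512 and 2662 TPM in d0ko and 716, 705 and 692 TPM in d3ko, with little spread within groups (log2 fold change -2.05 ± 0.12 (SE), adjusted p = 0.00018), and the controls changed by -2.09 ± 0.12. Prdx1, a peroxiredoxin, fell to 1655, 2043 and 2177 from 3476 and 3587 TPM (log2 fold change -1.02, adjusted p = 0.0024), and Gpx8, a peroxidase of the endoplasmic reticulum, rose (4.37 and 7.13 TPM in d0ko and 26.8, 39.1 and 18.4 TPM in d3ko; log2 fold change 2.11, adjusted p = 0.0085). In leave-one-out fits, redox genes risen and fallen numbered 0 and 3 without d0ko replicate 1, 1 and 2 without d0ko replicate 2, 2 and 1 without d3ko replicate 1 and 3 and 7 without d3ko replicate 3. In a list of 20 cell cycle and p53 genes Cdkn1b, an inhibitor of cyclin-dependent kinases, rose (3.56 and 2.86 TPM in d0ko and 9.74, 11.1 and 9.85 TPM in d3ko; log2 fold change 1.5, adjusted p = 0.0052) and Ccne1, the cyclin of the entry into S phase, fell (208 and 250.1 TPM in d0ko and 39.5, 62.9 and 73.1 TPM in d3ko; log2 fold change -2.14 ± 0.28 (SE), adjusted p = 0.0016), with no other call. Among all genes tested 11.6% rose and 5.72% fell. Prdx1 (log2 fold change -0.92, adjusted p = 0.0065) did not pass without d3ko replicate 1. Gpx8 (adjusted p = 0.091) no longer passed without d0ko replicate 1. The call of Cdkn1b (adjusted p = 0.058) was lost without d0ko replicate 2. When 1 library was omitted, cell cycle genes risen and fallen numbered 0 and 1 without d0ko replicate 2 and 2 and 3 without d3ko replicate 3.

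The largest rises with levels of at least 5 TPM and no overlap are described by the ratio of counts where d0ko was at or near 0. Aplnr, the apelin receptor, was at 0 counts in both d0ko libraries and at 9.02, 130.2 and 12.1 TPM in d3ko, at least 1292-fold higher against the floor of 3 counts. Prdm6, a regulator of smooth muscle, and Vstm2b were also at 0 in d0ko. They reached 27.0, 25.6 and 3.28 TPM (at least 333-fold) and 22.7, 14.7 and 3.19 TPM (at least 134-fold). Klhl6, Bmp2, Wnt2, Cer1 and Six2 each had 1 count in d0ko, and Fgf8 and Lhx1 complete the first 10. Wnt2, a ligand of lateral mesoderm, had 33.0, 12.9 and 3.38 TPM in d3ko against 0 and 0.04 TPM in d0ko (708-fold, 95% interval 127 to 27970), and Six2, a homeobox gene, 17.1, 17.5 and 3.81 TPM in d3ko against 0 and 0.04 TPM in d0ko (567-fold, 95% interval 102 to 22400). The largest falls were in Cxcl5, Ccl7, Wnt7b, Ccl2, Calcoco2, Rhox6, AU015836, Tspan1, 2410088K16Rik and Hr. Calcoco2, an autophagy receptor, had 26.8 and 35.4 TPM in d0ko and 0.89, 0.31 and 1.63 TPM in d3ko (log2 fold change -5.16 ± 0.54 (SE), adjusted p = 0.00076). The chemokine gene Ccl7 had 9.61 and 28.6 TPM in d0ko and 0.3, 0 and 0.35 TPM in d3ko, and Ccl2 12.3 and 31.8 TPM in d0ko and 1.17, 0 and 0.09 TPM in d3ko. Both were higher in d0ko replicate 2 than in replicate 1, as were fibroblast markers. Aplnr (adjusted p = 0.085) and Wnt2 (adjusted p = 0.063) did not keep the call without d0ko replicate 1. Aplnr (adjusted p = 0.071) and Rhox6 (adjusted p = 0.084) did not pass without d0ko replicate 2. The ratio without d3ko replicate 2 was at least 314-fold for Aplnr. It was at least 2043-fold for Aplnr, at least 543-fold for Prdm6, at least 211-fold for Vstm2b, 1135-fold for Wnt2 (95% interval 204 to 44840) and 866-fold for Six2 (95% interval 155 to 34190) without d3ko replicate 3. The ratio without d3ko replicate 1 was at least 87.6-fold for Vstm2b and 356-fold for Wnt2 (95% interval 63.9 to 14070).

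Some markers of other cell types were called as well, in a comparison where 11.6% of all genes tested rose and 5.72% fell. The summed TPM of 14 fibroblast markers was 63.1 and 197 in d0ko and 569, 219 and 491 in d3ko. Of the 13 tested 3 rose (Col5a1, Thy1 and Pdgfrb) and 1 fell (Acta2). Refitted without 1 library, fibroblast markers risen and fallen numbered 0 and 0 without d0ko replicate 1, 1 and 0 without d0ko replicate 2 and 3 and 0 without d3ko replicate 3. The calls of Thy1 and Acta2 were lost with the replicate block (adjusted p = 0.13 and 0.083). Dcn, a matrix protein of fibroblasts, had 4.41 and 17.4 TPM in d0ko and 3.99, 1.38 and 0.57 TPM in d3ko, and Fap was at or below 0.06 TPM. The part of feeder cells in the rises of Fn1, Vim and Wnt2 and in the falls of the chemokines was not tested. Of 8 tested extraembryonic endoderm markers 2 rose (Dab2, an endocytic adaptor, and Pth1r, a hormone receptor) and 1 fell (Rhox5). After leaving 1 library out, these markers risen and fallen numbered 0 and 1 without d0ko replicate 1, 1 and 0 without d0ko replicate 2 and 1 and 1 without d3ko replicate 1 and without d3ko replicate 2. The calls of Pth1r and Rhox5 were lost with the replicate block (adjusted p = 0.062 and 0.065). Afp was at 0 in all ko libraries and Ttr at or below 0.17 TPM. Of 5 trophoblast markers 1 rose, Eomes (11.6% of all genes tested rose), and of 8 ES cell markers 1 fell, Utf1 (5.72% of all genes fell). Of 6 blood and endothelium markers 2 rose, Etv2, a factor of their common precursor (6.10 and 6.12 TPM in d0ko and 81.5, 40.5 and 15.7 TPM in d3ko; log2 fold change 2.73, adjusted p = 0.011), and Runx1, a factor of blood (log2 fold change 3.08 ± 0.64, adjusted p = 0.0088), while the embryonic globin genes Hbb-bh1 and Hba-x were at 0. Of 4 neural markers 2 fell and none rose, Tubb3 (94.8 and 120.4 TPM in d0ko and 18.5, 4.54 and 19.3 TPM in d3ko; log2 fold change -3.09 ± 0.57 (SE), adjusted p = 0.0056) and Pax6 (log2 fold change -2.70 ± 0.48, adjusted p = 0.0046). Eomes (adjusted p = 0.056), Utf1 (adjusted p = 0.18), Etv2 (adjusted p = 0.089) and Runx1 (adjusted p = 0.088) no longer passed without d0ko replicate 1. The call of Eomes (adjusted p = 0.058), Utf1 (adjusted p = 0.13), Etv2 (adjusted p = 0.078) and Runx1 (adjusted p = 0.062) was lost without d0ko replicate 2. Utf1 (adjusted p = 0.12) did not keep the call without d3ko replicate 1.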

How the data were processed

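RNA of sorted cells was amplified with the SMART-Seq v4 ultra low input kit and sequenced without keeping strand, so reads of overlapping and antisense genes cannot be told apart. The authors deposited, for each library, RSEM expected counts and TPM per gene. The submitters' processing notes name STAR, RSEM, GRCm38 and mm10, with tool versions not given in the sources used here. The effective lengths in the deposited tables gave the read length of each library. Expected counts were rounded and genes with at least 1 CPM in at least 2 of 10 libraries kept (13899 of 24054). The day 3 against day 0 changes of both genotypes and their interaction were fitted over the 10 d0ko, d3ko, d0con and d3con libraries in edgeR 4.0.16 (TMM scaling, quasi-likelihood test, R 4.3.3), with p-values adjusted by Benjamini-Hochberg over all genes tested. The 4 libraries of the other groups were not used. DESeq2 1.42.0, limma 3.58.1 on log2(TPM + 1), other scalings and filters, blocks and leaving out single libraries were alternatives, among them the study's own kind of test, DESeq2 on 2 groups against a fold threshold. The procedure was tested on simulated counts.

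The members and the gene lists were chosen with earlier results of these data known. Named genes are Foxa2, members of the lists in order of their mean TPM in the higher group with called genes first, and up to 10 called genes a direction with the largest change, a mean of at least 5 TPM in the higher group and no overlap between libraries, and some of these genes are not reported here. Clones are given as the deposited files name them. Replicates 1 and 2 of d0ko and d3ko share clones C9 and C17, so these numbers pair libraries by clone. The number of d3ko replicate 3, also of clone C9, does not. Deviations from the group means correlated at -0.10 for number 1 and 0.04 for number 2 over 9122 genes. For d0ko replicate 1 with d3ko replicate 3 the correlation was 0.14. Since libraries share clones, p-values measure the spread between these libraries, which may be technical in part. Intervals on ratios of counts are exact 95% Poisson intervals and, with the floor of 3 counts, cover counting error only. Promoter sequences were taken from RefSeq (GRCm38.p6).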

Additional observations from a re-analysis of the deposited data

Results flagged for a closer look

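Genes called in d3ko against d0ko, with at least 5 TPM in at least 1 of the 10 libraries, were searched for opposite moves in the genotypes. Over all genes tested, 21.4% had every d3ko library below every d0ko library and 36.6% had every one above. For 6 of the genes searched every d3ko library was lower than both d0ko libraries while every d3con library was higher than both d0con libraries. For each, the difference between the changes in both genotypes (log2 change in the knockout minus that in the controls) did not pass the edgeR test after adjustment. The difference was -3.75 for Chga, a protein of secretory granules, with 26.5 and 24.8 TPM in d0ko and 4.68, 6.01 and 12.5 TPM in d3ko and 22.5 and 25.7 TPM in d0con and 146, 47.1 and 107 TPM in d3con. It was -4.40 for Fermt1, an activator of integrins in epithelia, with 1.02 and 1.52 TPM in d0ko and 0.31, 0.25 and 0.23 TPM in d3ko and 0.92 and 1.10 TPM in d0con and 6.53, 2.17 and 4.78 TPM in d3con. For Spink3, a secreted inhibitor of trypsin, it was -10.19, with 10.6 and 18.9 TPM in d0ko and 2.15, 0.54 and 0.88 TPM in d3ko and 2.99 and 11.3 TPM in d0con and 1289, 70.9 and 631 TPM in d3con. Spink3 was lowest of the d3con libraries in replicate 2, and its fall in the knockout did not pass with the replicate block (adjusted p = 0.085). The difference was -2.02 for Dnmt3b, the methyltransferase of the epiblast, with 204 and 201 TPM in d0ko and 43.6, 125 and 80.3 TPM in d3ko and 190.2 and 247 TPM in d0con and 364, 343 and 400.4 TPM in d3con. Sall4 had a difference of -1.27, with 306 and 231 TPM in d0ko and 122, 195 and 136 TPM in d3ko and 243 and 234 TPM in d0con and 289, 316 and 395 TPM in d3con, and Id3, a target of Bmp signals, one of -1.40, with 288 and 208 TPM in d0ko and 199, 112 and 91.0 TPM in d3ko and 185 and 222 TPM in d0con and 331, 224 and 331 TPM in d3con. The adjusted p of these differences lay between 0.1 (Fermt1) and 0.26 (Id3).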

How the results depend on the processing

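No alternative turned the direction of a called result. The main counts were 1613 genes higher and 795 lower in d3ko and 0 genes whose change differed between the genotypes. Testing against a 2-fold change gave 346 higher and 138 lower in edgeR and 319 and 92 in DESeq2 on the 5 ko libraries, an adjusted p under 0.01 gave 691 and 418, and edgeR on the 5 ko libraries alone 868 and 477. Leaving out 1 ko library gave 344 to 1809 higher and 323 to 1051 lower, with the lowest counts without d0ko replicate 1 (344 and 323) and without d0ko replicate 2 (554 and 420), where fewer samples enter. With the ko libraries of clone C9 only, chosen after seeing the data, the counts were 789 and 553. With the clone as a block they were 1593 and 917, and of 178 named genes called, 170 stayed called. With the replicate block they were 1581 and 873, and 163 of the 178 stayed called. Besides those given beside their values, the replicate block ended no call of a gene given with a value here. Genes whose change differed between the genotypes numbered 565 in DESeq2 on the same libraries, 12 in limma, 16 with no filter on low counts, 1 with median-of-ratios scaling, 1 with a mean count of at least 50, 3 with a clone block and 0 with the replicate block. They numbered 0 to 1118 when 1 library was left out, with 1118 without d3ko replicate 2 and 1 without d3ko replicate 3, and 329 with clone C9 only. Why these counts differ was not tested. Of the named called genes, 73 of 177 stayed called without d0ko replicate 1 and 81 of 177 without d0ko replicate 2. The 2 d0ko libraries, 1 per clone, and the 1 day 3 library of clone C17 limit the precision.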

Other observations

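Of 6 tested genes of the node and notochord 1 rose in the knockout (11.6% of all genes tested did), and 4 rose in the controls. The 1 risen gene was the Bmp antagonist Nog (0.22 and 0.12 TPM in d0ko and 4.0, 1.62 and 0.6 TPM in d3ko; log2 fold change 3.35, adjusted p = 0.024). Of 4 Cdx and early Hox genes 1 rose, Hoxb2, while 2 fell in the controls. Hoxb2 had 3 counts over both d0ko libraries, with 0.04 and 0.1 TPM there and 1.03, 1.47 and 1.59 TPM in d3ko. Its log2 fold change was 4.0 (adjusted p = 0.029). The ratio of its counts was 16.1-fold without d3ko replicate 3 (Poisson interval 5.51 to 78.1). It was 19.6-fold without d3ko replicate 1 (Poisson interval 6.7 to 94.9). Hoxb2 was not tested in edgeR without d3ko replicate 2 or without d3ko replicate 3. Nog (adjusted p = 0.12) and Hoxb2 (adjusted p = 0.19) did not pass without d0ko replicate 1. Nog (adjusted p = 0.15) and Hoxb2 (adjusted p = 0.12) no longer passed without d0ko replicate 2.

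Of 13 genes of the formative epiblast 3 rose, Fgf5, Sox4 (3.34 and 5.17 TPM in d0ko and 25.1, 59.3 and 12.4 TPM in d3ko; log2 fold change 2.75, adjusted p = 0.0096) and Zic2 (0.45 and 0.48 TPM in d0ko and 2.78, 8.0 and 2.03 TPM in d3ko; log2 fold change 3.01, adjusted p = 0.015), with d3ko replicate 2 the highest in each. In the same list 2 genes fell, Dnmt3b among them, and the median log2 fold change was 0.94, where 11.6% of all genes tested rose and 5.72% fell. With 1 library left out, formative genes risen and fallen numbered 0 and 0 without d0ko replicate 1, 0 and 1 without d0ko replicate 2, 3 and 1 without d3ko replicate 1, 3 and 1 (median -0.28) without d3ko replicate 2 and 5 and 3 without d3ko replicate 3. Tdg, a glycosylase that removes the products of methylcytosine oxidation, rose (8.67 and 7.93 TPM in d0ko and 18.3, 24.7 and 21.5 TPM in d3ko; log2 fold change 1.20, adjusted p = 0.0057), 1 of 9 DNA methylation genes to do so (11.6% of all genes tested did). The call of Fgf5 (adjusted p = 0.09), Sox4 (adjusted p = 0.096), Zic2 (adjusted p = 0.11) and Tdg (adjusted p = 0.051) was lost without d0ko replicate 1. Without d0ko replicate 2 the call was lost for Fgf5 (adjusted p = 0.1), Sox4 (adjusted p = 0.056), Zic2 (adjusted p = 0.096) and Tdg (adjusted p = 0.058). The log2 fold change without d3ko replicate 2 was 2.85 for Fgf5, still past the test.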
